A study of Homo sapiens with 8 samples.

Results

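The 2 control guide libraries of a CUT&RUN study of the transcription factor NF-Y in rhabdomyosarcoma cells were compared with each other. CUT&RUN sequences the DNA that a nuclease, tethered to an antibody on a bound protein, cuts free. The members are all the NFYB peaks listed for RH30 cells that had received the guide sgCtrl1 (4025 peaks) or sgCtrl2 (6687 peaks), 10712 of the 22724 peaks in the 6 NFYB and NFYC peak lists of the study. The study holds 8 libraries, 1 for each combination of cells, guide and antibody. Besides the controls, it has RH30 libraries of the guides sgCCAAT2a and sgCCAAT2b (NFYB) and libraries of RH4 cells that were not infected (NFYB and NFYC), which serve here only to ask where control peaks were also listed. The IgG libraries, of RH4 cells and of RH30 cells with sgCtrl1, were not analysed here.

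RH4 and RH30 are established rhabdomyosarcoma lines, both labelled as positive for the PAX3-FOXO1 fusion. The RH30 cells of all 4 guides had been engineered to carry an inducible cytosine base editing system, received their guide by transduction, were selected with blasticidin and were given rapamycin, which starts editing. They were harvested 8 days after rapamycin. The guides sgCCAAT2a and sgCCAAT2b target an NF-Y motif of the PAX3 promoter, and the sequences and targets of the control guides are not given in the labels. What seBE in the titles stands for is not explained there, and editing itself was not analysed here. The RH30 libraries carry RH4 as their source and cell line in the labels, but their titles and the design text name RH30, which is used here. Each guide has 1 library, so the guide, the culture and the library cannot be told apart, and the comparison gives the size of the differences between 2 libraries with no test and no p-value. Intervals are exact Clopper-Pearson 95% intervals and cover counting error only.

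NF-Y binds DNA as a complex of NFYA, NFYB and NFYC. NFYB and NFYC pair through histone-fold domains, and NFYA then reads the sequence CCAAT, which lies upstream of the start site of many housekeeping, cell cycle, lipid synthesis and protein folding genes. PAX3-FOXO1 is transcribed from the PAX3 promoter in fusion-positive rhabdomyosarcoma, which is why an NF-Y motif in that promoter was of interest to the study.

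The stretches below are the parts of RefSeq promoters (GRCh38.p14) that lie under a control peak and upstream of the gene start, each 5′ to 3′ on the strand of the gene, with every CCAAT and its reverse complement ATTGG in capitals. HSPA5 (chr9:125241350-125241538, minus strand, sgCtrl1 peak) and PAX3 (chr2:222299014-222299202, minus strand, sgCtrl1 peak) stand for promoters listed in both controls.
HSPA5: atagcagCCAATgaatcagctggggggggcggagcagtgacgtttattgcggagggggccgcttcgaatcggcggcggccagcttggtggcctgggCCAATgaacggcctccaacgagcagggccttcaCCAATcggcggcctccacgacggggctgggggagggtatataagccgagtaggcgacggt
PAX3: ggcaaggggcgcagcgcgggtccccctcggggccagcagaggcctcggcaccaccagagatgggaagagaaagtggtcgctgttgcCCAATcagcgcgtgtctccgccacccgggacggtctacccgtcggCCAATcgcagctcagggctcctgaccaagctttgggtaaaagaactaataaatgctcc
SKA2 (chr17:59155187-59155381, minus strand, sgCtrl2 peak) and PRR11 (chr17:59155496-59155622, plus strand, sgCtrl1 peak) are neighbouring genes that start away from each other. They are shown because the peak of each control lay nearer to a different one of the 2 starts.
SKA2: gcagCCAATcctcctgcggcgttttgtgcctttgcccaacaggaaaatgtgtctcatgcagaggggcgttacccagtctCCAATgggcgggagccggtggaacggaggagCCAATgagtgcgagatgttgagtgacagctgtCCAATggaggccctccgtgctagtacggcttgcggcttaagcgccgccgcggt
PRR11: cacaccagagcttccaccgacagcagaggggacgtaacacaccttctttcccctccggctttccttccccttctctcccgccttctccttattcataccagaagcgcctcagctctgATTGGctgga
DDIT3 (chr12:57520515-57520693, minus strand) and BUB1 (chr2:110678064-110678233, minus strand) were listed in sgCtrl1 and not in sgCtrl2, though also in RH4 and with at least 1 sgCCAAT guide, and are shown as promoters that stood early in the sgCtrl1 list.
DDIT3: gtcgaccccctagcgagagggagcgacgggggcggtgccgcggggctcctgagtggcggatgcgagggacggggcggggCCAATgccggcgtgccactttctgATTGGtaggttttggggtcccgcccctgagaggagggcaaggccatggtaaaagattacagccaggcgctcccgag
BUB1: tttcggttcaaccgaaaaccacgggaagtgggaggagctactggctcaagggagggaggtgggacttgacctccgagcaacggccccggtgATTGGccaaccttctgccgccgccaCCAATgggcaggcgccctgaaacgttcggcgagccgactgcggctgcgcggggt
FOXO1 (chr13:40666658-40666854, minus strand) and MYH14 (chr19:50203384-50203580, plus strand) were, of the 2 controls, listed only in sgCtrl2 and hold the motif. GPATCH8 (chr17:44503443-44503639, minus strand) and FANCE (chr6:35452159-35452337, plus strand) were listed in sgCtrl2 and in no other library, and are shown because their stretch holds no CCAAT on either strand.
FOXO1: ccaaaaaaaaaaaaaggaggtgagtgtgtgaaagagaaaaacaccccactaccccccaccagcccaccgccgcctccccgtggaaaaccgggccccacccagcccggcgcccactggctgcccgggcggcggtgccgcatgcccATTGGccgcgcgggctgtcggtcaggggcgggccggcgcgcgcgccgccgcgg
MYH14: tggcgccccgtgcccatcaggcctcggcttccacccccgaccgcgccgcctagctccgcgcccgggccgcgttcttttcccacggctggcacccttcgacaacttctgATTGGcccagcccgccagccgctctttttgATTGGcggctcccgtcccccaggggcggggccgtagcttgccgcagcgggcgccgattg
GPATCH8: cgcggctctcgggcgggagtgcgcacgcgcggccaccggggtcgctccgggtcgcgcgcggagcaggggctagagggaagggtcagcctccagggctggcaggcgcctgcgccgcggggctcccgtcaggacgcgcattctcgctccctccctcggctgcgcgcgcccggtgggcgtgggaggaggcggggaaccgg
FANCE: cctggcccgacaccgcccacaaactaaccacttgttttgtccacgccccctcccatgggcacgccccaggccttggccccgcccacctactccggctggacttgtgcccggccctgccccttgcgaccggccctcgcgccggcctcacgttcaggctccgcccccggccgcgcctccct
In HSPA5, which encodes the main chaperone of the endoplasmic reticulum, the motif centres lie 186, 97 and 64 bases before the start. PAX3 has motifs 116 and 71 bases before its start, DDIT3 98 and 74, BUB1 77 and 52, and MYH14 128 and 98. FOXO1 has a single motif at 67 bases, and SKA2 has 4 copies, at 189, 114, 83 and 51 bases.

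The libraries differed before any peak was compared. Per the file headers, sgCtrl1 held 13.9 M tags and sgCtrl2 10.5 M. The shallower sgCtrl2 library gave the longer list, with 3.10% of its tags in peaks against 2.40%, and fewer tags per listed peak, 48.6 against 82.9. Its fragments were estimated shorter (82 against 104 bp), and it had fewer putative peaks before filtering, 387804 against 862370. Of these, 1.96% passed the filter against the same input in sgCtrl2 and 0.523% in sgCtrl1. The part of these differences in the results below was not tested. The files list positions with no height, so the place of a peak in its file is the one graded value available, and the headers do not say that it is a rank.

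At the level of peaks, the controls shared 2594 pairs that overlapped by at least 1 bp, each pair holding 1 peak of each list. That was 64.4% of the sgCtrl1 list (62.9 to 65.9%) and 38.8% of the sgCtrl2 list (37.6 to 40.0%), which left 1431 peaks listed only in sgCtrl1 and 4093 only in sgCtrl2. Of the 8118 separate sites in either list, 32.0% were in both. Shared peaks lay almost on top of each other, with centres a median of 25 bp apart and 73.0% of pairs within 50 bp. Over the 2594 pairs, places in the 2 files were ordered alike (Spearman rho 0.894, a description over sites that share their libraries). The PAX3 promoter, which the edited guides target, was such a pair: its peak stood at place 545 in sgCtrl1 and 703 in sgCtrl2, with centres 5 bp apart, and it was listed in RH4 with both antibodies and in neither sgCCAAT library.

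Sharing varied with place. In the first decile of each list, its first 10% in file order, 89.8% of sgCtrl1 peaks and 90.6% of sgCtrl2 peaks overlapped the other control. The sgCtrl1 share stayed above 80% through the sixth decile (81.4%), and was 65.9%, 33.0%, 8.71% and 2.73% in the following deciles. In the longer sgCtrl2 list it was 80.0% in the third decile, 59.4% in the fourth, 17.5% in the sixth and 2.24% in the last. Peaks of 1 control only stood late, at a median place of 3266 of 4025 in sgCtrl1 and 4588 of 6687 in sgCtrl2, while shared peaks had medians of 1422.5 and 1411.5.

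**Figure D1:**
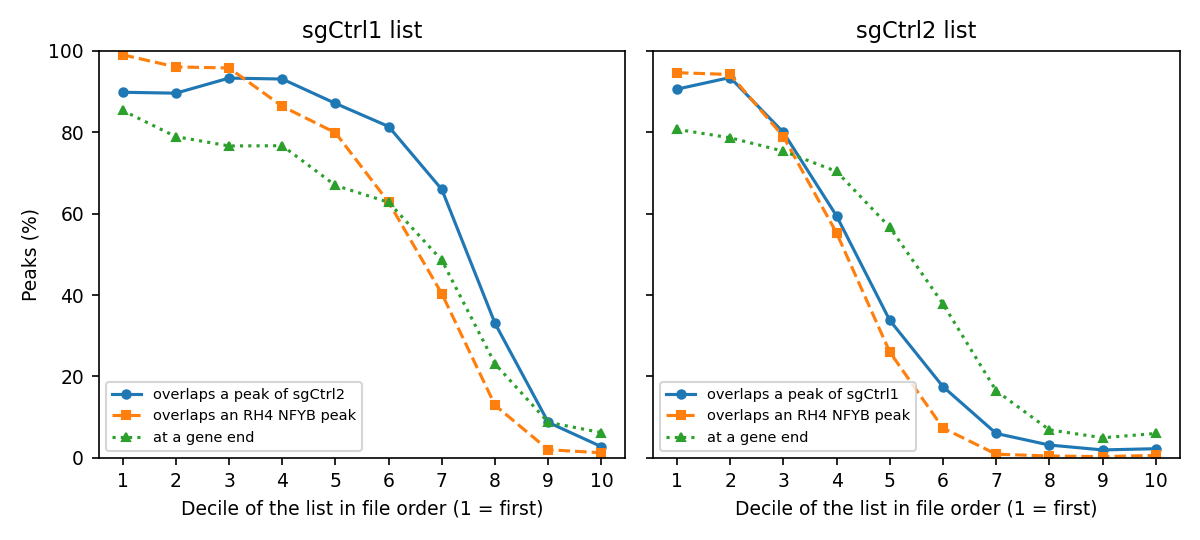
Percent of peaks in each decile of the sgCtrl1 list (left) and the sgCtrl2 list (right), in file order, that overlap a peak of the other control, that overlap an RH4 NFYB peak, or that lie within 1000 bp of a gene end. All 3 shares are above 80% in the first decile and below 10% in the last; in sgCtrl2 the gene-end share stays above the other 2 from the fourth decile on.

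The particular peaks that stood early fall into kinds that the counts alone hide. Among the first 402 places of sgCtrl1, 41 peaks did not overlap an sgCtrl2 peak. Of these, 18 had an sgCtrl2 peak with its centre within 500 bp, and 12 of the 18 lay at a gene end. Such neighbouring peaks lay at CIC (a transcriptional repressor, 267 bp), CAMTA1 (a calmodulin-binding transcription activator, 239 bp), TRAPPC6A and BLOC1S3 (vesicle traffic genes, 221 bp), and SKA2 and PRR11 (a kinetochore gene and a cell cycle gene, 245 bp). CIC stood at place 1 in sgCtrl2 and 5 in sgCtrl1 and yet did not count as shared. The other 23 had no sgCtrl2 peak that near, all 23 were in RH4, and 21 were in all 4 other lists. In the printed stretches, the sgCtrl2 peak covers 4 motifs before the SKA2 start. The sgCtrl1 peak covers 1 motif in the PRR11 stretch, 131 bases before that start. The rest of this sgCtrl1 peak lies outside the PRR11 promoter and is not printed, and the peak does not reach the PRR11 start.

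Among the first 668 places of sgCtrl2, 63 peaks did not overlap an sgCtrl1 peak. An sgCtrl1 centre lay within 500 bp of 17 of them. A further 30 were in RH4, 12 of them in all 4 other lists. The remaining 16 were absent from both RH4 lists, and none lay at a gene end, but 12 were listed with both sgCCAAT guides. Of these 16, 6 lay on chromosome 16 between 34 and 35 Mb and 5 between 46 and 47 Mb, the stretches that flank its centromere, and 2 on unplaced contigs. The first of these regions held 11 sgCtrl2 peaks, 13 of sgCCAAT2a and 11 of sgCCAAT2b, against 1 of sgCtrl1 and 0 of either RH4 antibody, so that here sgCtrl1 was the control that stood apart from the other RH30 libraries. The entry names of the RH4 lists hold coordinates that differ from those in their columns; whether such repeat-rich regions could be listed in RH4 was not tested.

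Over whole lists, such near misses were a small share. A peak of the other control lay within 500 bp of 93 of the 1431 sgCtrl1-only peaks (6.50%) and of 93 of the 4093 sgCtrl2-only peaks (2.27%). The median distance to the nearest peak of the other control was 65043 bp for sgCtrl1-only and 169574 bp for sgCtrl2-only peaks. A rule that took peaks up to 1000 bp apart as shared moved the shares to 67.7% and 41.0%.

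Shared peaks lay at gene ends and particular peaks mostly did not. A peak counted as at a gene end when it overlapped the 1000 bp on either side of an end of 1 of 20037 protein-coding RefSeq genes. That held for 71.5% of shared peaks (69.7 to 73.2%), 20.5% of sgCtrl1-only peaks (18.5 to 22.7%) and 25.6% of sgCtrl2-only peaks (24.2 to 26.9%). A further 13.3%, 33.1% and 33.4% lay inside a gene, and 14.8%, 45.1% and 39.9% between genes. Unplaced contigs held 0.424%, 1.19% and 1.12%.

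The place of a peak moved with its location. Among sgCtrl1-only peaks the gene-end share was 78.0% in the first decile of the list and 5.10% in the last. Among sgCtrl2-only peaks it was 50.8% in the first decile, 74.6% in the third, 58.7% in the fifth and 5.81% in the last. With the sgCtrl2 list limited to its first 4025 places, as many as sgCtrl1 holds, the gene-end share of sgCtrl2-only peaks became 55.1%, against 20.1% for sgCtrl1-only peaks. The gap between the particular classes was thus wider at equal list length.

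**Figure D2:**
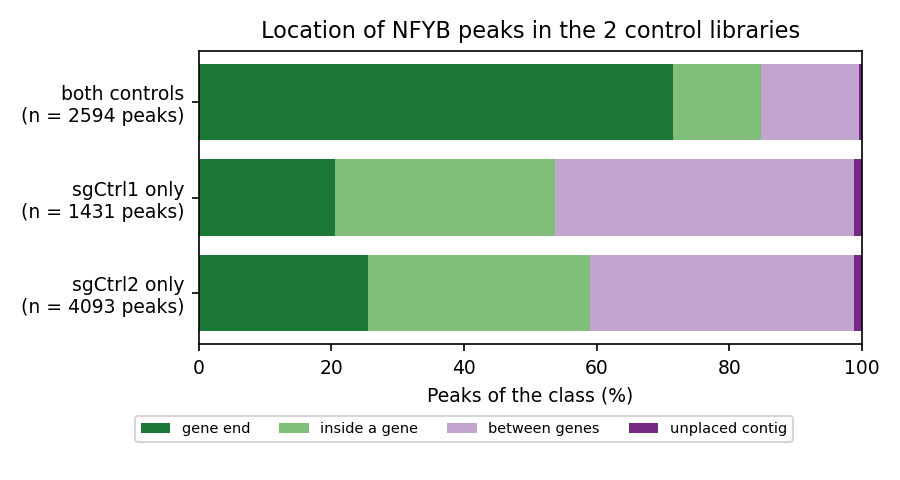
Stacked bars of the percent of peaks at a gene end (within 1000 bp), inside a gene, between genes or on an unplaced contig, for 2594 peaks in both controls, 1431 in sgCtrl1 only and 4093 in sgCtrl2 only. The gene-end part is 71.5% for shared peaks and 20.5% and 25.6% for the particular classes.

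Near starts, the classes also differed in side. A RefSeq start lay within 1000 bp of 71.3% of shared, 20.9% of sgCtrl1-only and 24.0% of sgCtrl2-only peaks on chromosomes with listed starts. Of those near a start, 87.1%, 76.7% and 66.4% had their centre upstream of it. The median centre lay 89 bp upstream for shared, 81 bp for sgCtrl1-only and 53 bp for sgCtrl2-only peaks. Of gene-end peaks at genes of known strand, 1.97% of shared peaks (32 of 1622), 8.37% of sgCtrl1-only (21 of 251) and 7.36% of sgCtrl2-only peaks (65 of 883) touched only a 3′ end.

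Genes with a peak at an end agreed more than peaks of all locations did, but they leave out the peaks away from gene ends. Of gene-end peaks alone, 1854 were shared and 294 particular in sgCtrl1, and 1853 and 1047 in sgCtrl2. A peak at an end was listed by both controls for 2259 genes (11.3% of the 20037), by sgCtrl1 only for 265 (1.32%) and by sgCtrl2 only for 1105 (5.51%). So 89.5% of the 2524 sgCtrl1 genes (88.2 to 90.7%) and 67.2% of the 3364 sgCtrl2 genes (65.5 to 68.7%) were shared. For 66 of the shared genes (2.92%) no peaks of the 2 controls overlapped, as at CIC. Of gene-end peaks listed in 1 control, 83 of 294 in sgCtrl1 and 108 of 1047 in sgCtrl2 lay at a gene that the other control held through another peak. The best place of a gene's peaks had a median of 1221 for shared and 2203 for sgCtrl1-only genes in the sgCtrl1 file, and of 1200 and 3122 for shared and sgCtrl2-only genes in the sgCtrl2 file.

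The first 10 shared gene-end peaks of sgCtrl1 lay at OS9 (a lectin of endoplasmic reticulum degradation), TOM1L2 and DRC3, LRCH4 and FBXO24, TOMM40 (the channel of mitochondrial protein import), AP2A1 (a clathrin adaptor subunit), PPP2R1A (a phosphatase 2A scaffold), KPNB1 (importin beta), STIP1 (a co-chaperone), NLK (a kinase) and SRGAP2. All 10 peaks were in all 4 other lists. The gene-end peaks at genes of sgCtrl1 alone that stood first and had an RH4 peak were those at DDIT3 and MBD6 (place 64), POLR2I and TBCB (81), MAGI3 (109), PTBP1 (110), PLA2G6 (155), and DCAKD and NMT1 (156). DDIT3 encodes the stress-induced factor CHOP, POLR2I a subunit of RNA polymerase II and PTBP1 a splicing regulator. Picked for an RH4 NFYB peak, all 6 were also listed with RH4 NFYC and both sgCCAAT guides, so each was missing from sgCtrl2 alone. Of all sgCtrl1-only genes, 29.1% were in all 4 other lists.

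The matching sgCtrl2 genes were BCL2L1 (place 22), SFXN5 (41), TXNDC16 and GPR137C (45), MYH14 (111), ARL16 and HGS (117) and MAP2K3 (208). BCL2L1 encodes the anti-apoptotic protein BCL-XL, MYH14 a non-muscle myosin heavy chain and MAP2K3 a kinase that activates p38. The peaks at TXNDC16 and GPR137C and at ARL16 and HGS were in all 4 other lists. SFXN5, MYH14 and MAP2K3 were each in RH4 and with 1 of the sgCCAAT guides, and BCL2L1 was in RH4 but with neither. FOXO1, the fusion partner of PAX3, was listed in sgCtrl2 at place 2035 and in RH4 with the NFYC antibody, and in no other list.

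Lists of genes grouped by function, chosen with earlier results of these data known, are described by their counts beside the shares of all genes given above, 11.3%, 1.32% and 5.51%. Protein folding genes of the endoplasmic reticulum were listed alike in the 2 controls: 16 of 20 (80.0%) in both controls, 1 in sgCtrl1 only and 0 in sgCtrl2 only. Shared members included CALR (place 238 in sgCtrl1 and 446 in sgCtrl2), CANX (639 and 621), CRELD2 (150 and 85) and DNAJB11 (323 and 327). The exception was DDIT3. In cholesterol and fatty acid synthesis, 13 of 20 were in both, among them FASN and FDPS (581 and 629), and LSS, lanosterol synthase, was in sgCtrl1 only (795). In mitosis and S phase, 13 of 20 were in both, among them AURKA (949 and 919), AURKB, CCNB1 and CCNB2, and BUB1, a spindle checkpoint kinase, was in sgCtrl1 only (457). None of these 3 lists, of only 20 genes each, had a gene in sgCtrl2 only, a class of 5.51% of all genes. The serine and one-carbon list had 7 of 10 in both (ATF4, MTHFD1, MTHFD2 and PHGDH among them) and none in 1 control only.

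Of the NF-Y subunits and partners, NFYA (107 and 75), NFYC (374 and 285), SP1 (23 and 283) and SP3 (1227 and 825) were in both controls. NFYB itself was in sgCtrl1 only, at place 1863, and in RH4. Places differed widely for some shared genes, of which 2 are named after their values were seen: the topoisomerase gene TOP2A stood at 26 and 260, and FANCG at 189 and 2643.

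Other lists had genes in sgCtrl2 only, mostly at shares near the 5.51% of all genes. These were 7.69% of proteasome, 4.71% of ribosomal protein, 5.48% of histone and 6.88% of zinc finger genes, and 1 of 14 cytosolic chaperones. The share was higher in DNA repair, with 3 of 20 genes. Shares in both controls were near the 11.3% of all genes for proteasome (12.8%) and ribosomal protein genes (14.1%), and higher for the rest of these lists. In DNA repair, 10 of 20 were in both (ERCC1, FANCA, FANCC and FANCF among them) and ATR (3420), FANCB (2207) and FANCE (3063) were in sgCtrl2 only. Of the 3, FANCB was in RH4 with the NFYB antibody and the other 2 were in no other list. Proteasome subunits had 5 of 39 in both, PSMD3 in sgCtrl1 only, and PSMC3, PSMC6 and PSMD8 in sgCtrl2 only. Cytosolic ribosomal protein genes had 12 of 85 in both, 4 in sgCtrl1 only (RPL19, RPL23A, RPL9 and RPS19) and 4 in sgCtrl2 only (RPL22, RPL35, RPS26 and RPS28). Chaperones of the cytosol had 3 of 14 in both (HSPA8, HSPH1 and TCP1) and HSP90AA1 in sgCtrl2 only (3562). Histone genes, matched by name, had 27 of 73 in both, and H2AC15 and H2BC15 (1 peak, place 1905), H3C6 and H4C5 in sgCtrl2 only. Histone and ribosomal protein genes have near-identical copies, and whether reads there were assigned to the wrong copy was not tested. Zinc finger genes named ZNF had 97 of 509 in both, 10 in sgCtrl1 only and 35 in sgCtrl2 only.

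Most muscle genes and reported fusion targets had no peak in either control, at shares somewhat below the 81.9% of all 20037 genes. Of 25 myogenic regulators and muscle genes, 19 were in neither and 5 in both, among them PAX3, MEF2D (1870 and 1777), MYOD1 (2088 and 2364) and SIX4 (3467 and 4009). SIX5 was in sgCtrl2 only (2084). Of 20 reported targets of PAX3-FOXO1, 15 were in neither. ALK (2011 and 2270), MYOD1 and OLIG2 (2596 and 2178) were in both, and FGFR4 (3475) and MET (6356) in sgCtrl2 only and in none of the 4 other lists. Markers of other cell types were nearly free of peaks in the controls: 0 of 10 liver and 0 of 12 blood markers, and 1 of 10 neuron markers, SYT1, in sgCtrl1 only (1712). Of 390 olfactory receptors, which work in the sensory neurons of the nose, 0 were in both or in sgCtrl1 only and 3 were in sgCtrl2 only, at a median place of 4078.

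The motif shares differed between the particular classes. CCAAT or ATTGG occurred in 71.5% of the RefSeq promoters of genes with a peak in both controls, 56.5% for genes of sgCtrl1 only and 37.1% for genes of sgCtrl2 only, against 28.7% for genes of neither. The closer look at promoters that a peak itself overlapped was added after seeing the data. Of distinct 300-base promoters (250 before to 50 after a start) of this kind, the motif occurred in 91.0% of those with peaks in both controls (2032 of 2234), 77.9% of those of sgCtrl1 only (233 of 299) and 46.1% of those of sgCtrl2 only (450 of 976). Among all 34943 promoters it was 34.6%, and 29.9% among those with a peak in neither control. This set was not limited to protein-coding genes, while the shares by gene above rest on 22199 promoters of such genes. At least 2 copies occurred in 57.5%, 36.8% and 12.2% of the 3 classes, against 10.6% of all promoters. The motif was most frequent between 75 and 50 bases before the start in each class, at 37.0, 29.8 and 14.1 copies per 100 promoters, against 5.48 where neither control had a peak. The median GC content was 65.3%, 61.3% and 69.0% in the 3 classes and 57.0% without a peak.

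Under the peak itself the same order held. Of peaks lying wholly inside a promoter, 95.2% of shared peaks in the sgCtrl1 list (1038 of 1090) and 94.2% in the sgCtrl2 list (871 of 925) covered the motif. For sgCtrl1-only peaks it was 87.8% (108 of 123) and for sgCtrl2-only peaks 50.6% (168 of 332; 45.1 to 56.1%). The same window in all promoters held it in 27.0% and 27.7%, for the widths of the sgCtrl1 and sgCtrl2 peaks of 189 and 197 bp. Early sgCtrl2-only peaks did not share the low value: in the first quintile of the list, its first 20%, 97.2% (35 of 36) covered the motif, against 97.6% of shared peaks. In the second quintile it was 56.9% (62 of 109) against 90.6%, and in the third 41.2% (63 of 153) against 85.7%. FOXO1 and GPATCH8, printed above, are of the second quintile, and FANCE is of the third.

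**Figure D3:**
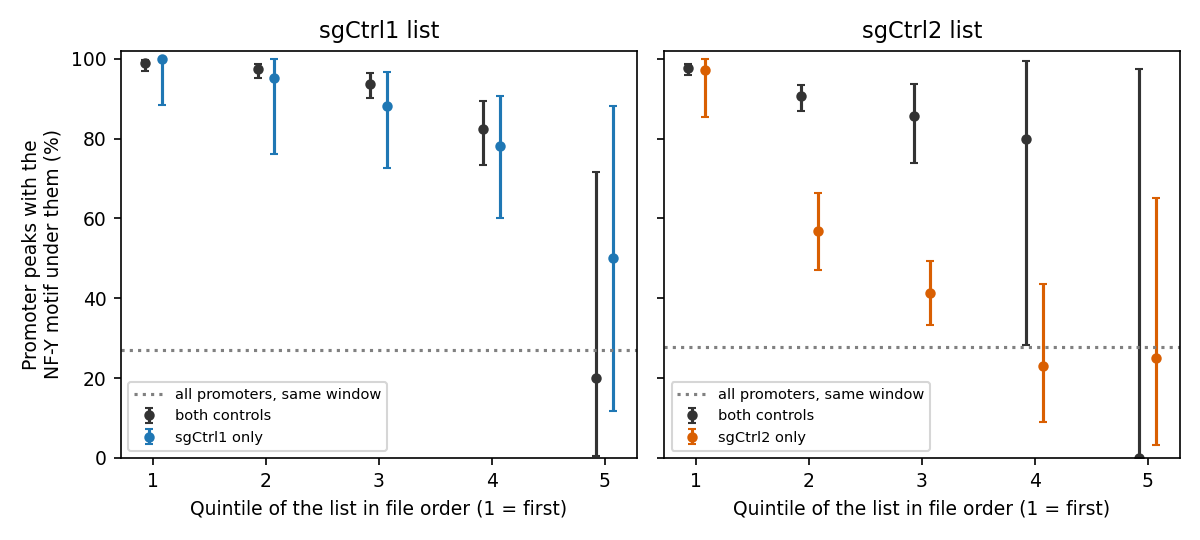
Percent of peaks inside a promoter that cover the NF-Y motif, by quintile of the sgCtrl1 list (left) and the sgCtrl2 list (right), for peaks in both controls and in 1 control, with exact 95% intervals; the dotted line is the share of all promoters with the motif in a window of that width. The classes overlap in every quintile of sgCtrl1, while in the second and in the third quintile of sgCtrl2 the particular peaks lie below the shared ones.

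Presence in RH4 went with the motif. Among sgCtrl2-only promoter peaks, 78.2% of those in RH4 covered the motif (111 of 142) and 30.0% of those not in RH4 did (57 of 190; 23.6 to 37.1%), a value close to the 27.7% of all promoters. Among sgCtrl1-only peaks the values were 93.3% (97 of 104) and 57.9% (11 of 19). The sgCtrl2-only peaks were also the richest in GC, with a median of 70.1% under the peak against 66.5% for shared peaks of that list. That median was alike for the sgCtrl2-only peaks in RH4 (70.1%) and not in RH4 (70.3%). A match is a description of the letters and not evidence of binding, and whether GC content had a part in the listing of these promoters was not tested.

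**Figure D4:**
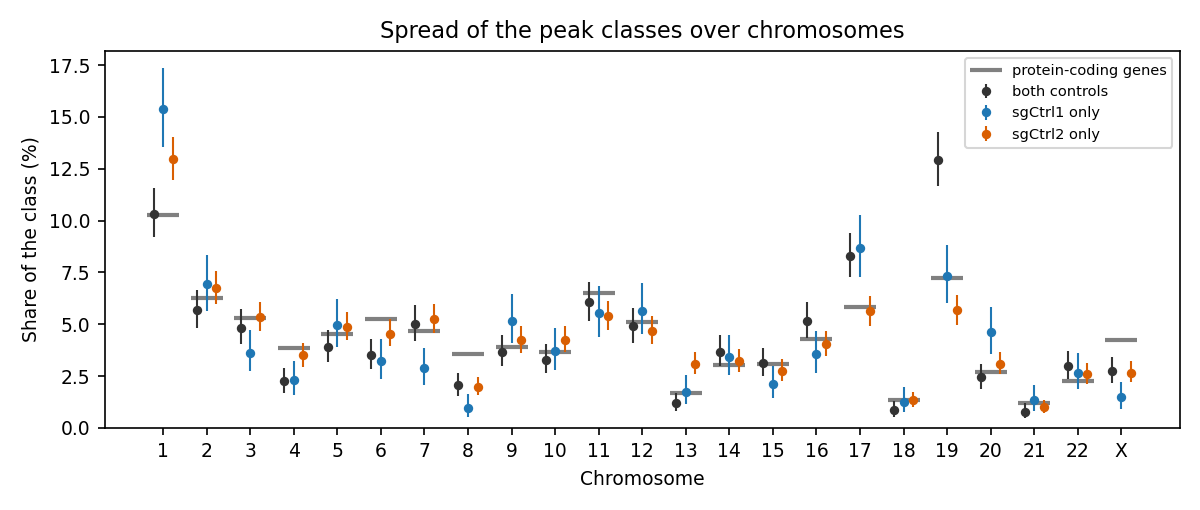
Share of each peak class on each autosome and the X chromosome (points, with exact 95% intervals) beside the share of protein-coding genes there (grey bars). Shared peaks reach 12.9% on chromosome 19, and sgCtrl1-only peaks 15.4% on chromosome 1.

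Over chromosomes the classes differed at a few places. Shared peaks were most over-represented relative to genes on chromosome 19 (12.9% of peaks and 7.24% of genes, a ratio of 1.78), 17 (ratio 1.42) and 22 (1.32). For sgCtrl1-only peaks these were chromosomes 20 (4.61% of peaks, ratio 1.72), 1 (15.4%, 1.49) and 17 (8.67%, 1.49), and for sgCtrl2-only peaks 13 (3.10%, 1.84), 1 (12.9%, 1.26) and 10 (4.25%, 1.16). These ratios use gene share as reference, while most particular peaks lay away from gene ends, on chromosome 13 113 of 127 sgCtrl2-only peaks. Shares were not set against chromosome length, so a high ratio is not an excess by length. The intervals of the shared and the sgCtrl1-only class were apart on 4 of 23 chromosomes, with sgCtrl1-only higher on 1 and 20 and lower on 7 and 19. The sgCtrl2-only class was higher than the shared class on 1, 4 and 13 and lower on 17 and 19. Chromosome 1 was thus higher, and chromosome 19 lower, in both particular classes. On chromosome 12 between 57 and 59 Mb, around OS9 and DDIT3, there were 6 shared, 17 sgCtrl1-only and 15 sgCtrl2-only peaks, and the particular ones had median places of 3018 and 4175. Copy number was not analysed here.

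Clustering on a finer scale was unequal too. In bins of 1 Mb, 34.0% of shared peaks lay in bins with at least 5 of their class, as did 25.3% of sgCtrl2-only and 6.51% of sgCtrl1-only peaks. The fullest bins held 16, 15 and 9 peaks. The classes differ in size, which by itself changes how many share a bin.

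Presence in RH4 was high for shared peaks and low for particular ones. The RH4 NFYB list overlapped 79.3% of shared peaks (77.7 to 80.9%), 18.2% of sgCtrl1-only (16.3 to 20.3%) and 8.28% of sgCtrl2-only peaks (7.46 to 9.17%). With the NFYC antibody the values were 82.2%, 19.9% and 8.99%. With the sgCtrl2 list limited to its first 4025 places, the order of the particular classes turned: 22.1% of sgCtrl2-only and 17.9% of sgCtrl1-only peaks were in RH4 NFYB. Asking for an overlap of 50% of both peaks, between the controls as well as with RH4, changed the classes to 2289, 1736 and 4398 peaks. The RH4 NFYB values were then 19.8%, 8.06% and 4.46%, with the same order as for 1 bp. This rule also depends on peak widths and centres, and the part of these in RH4 was not tested.

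The shares differed with location. At gene ends, 87.9% of shared, 61.6% of sgCtrl1-only (55.7 to 67.2%) and 24.6% of sgCtrl2-only peaks (22.1 to 27.4%) were in RH4 NFYB. Away from gene ends the values were 57.8%, 7.04% and 2.66%. The RH30 libraries of sgCCAAT2a and sgCCAAT2b listed 38.8% and 37.1% of the sgCtrl1-only gene-end peaks, but 4.78% and 3.92% of those of sgCtrl2 only. At gene ends the sgCCAAT values were below the RH4 NFYB value in both particular classes and also in the shared class (68.1% and 72.5%). Away from gene ends they were above it, at 12.8% and 14.1% for sgCtrl1-only, 3.97% and 4.50% for sgCtrl2-only and 70.3% and 74.1% for shared peaks. The sgCCAAT lists (2451 and 2558 peaks) are shorter than the RH4 NFYB list (3243 peaks), and the part of list length was not tested.

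**Figure D5:**
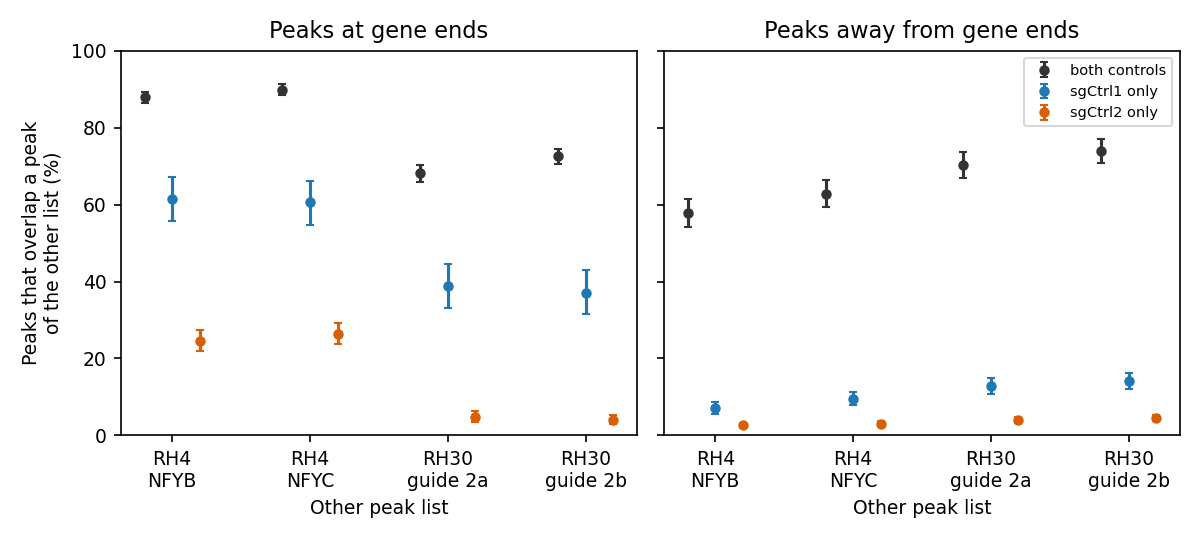
Percent of peaks of each class that overlap a peak of another list, for peaks at gene ends (left) and away from them (right), with exact 95% intervals; guide 2a and guide 2b are the RH30 libraries of sgCCAAT2a and sgCCAAT2b. At gene ends sgCtrl1-only peaks sit between 37.1% and 61.6%, and sgCtrl2-only peaks between 3.92% and 26.5%.

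By place, particular peaks of the first 2 deciles were in RH4 nearly as often as shared ones in sgCtrl1, but not in sgCtrl2. In sgCtrl1 the RH4 NFYB list held 97.6% of particular peaks in the first decile (40 of 41) and 90.5% in the second, against 99.2% and 96.7% of shared peaks. In the third decile it held 77.8% of particular peaks (21 of 27) against 97.1% of shared ones, and in the fourth 89.3% against 86.1%. It held 71.2% of particular peaks in the fifth decile, 28.5% in the seventh and 0.765% in the last. In sgCtrl2 it held 71.4% of particular peaks in the first decile (45 of 63) against 97.0% of shared ones. It held 61.9% against 83.2% in the third, and 16.0% against 45.6% in the fifth. By the kinds given above, it held 15 of the 17 first-decile peaks with an sgCtrl1 centre within 500 bp. It held all 30 of the second kind and 0 of the remaining 16, none of which lay at a gene end. Of sgCtrl1-only peaks 68.6% (982), and of sgCtrl2-only peaks 85.7% (3509), were in none of the 4 other lists, against 5.63% of shared peaks. All 4 held 7.76% (111), 0.831% (34) and 54.4%.

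Seen from RH4, both controls held 64.7% of its 3243 NFYB peaks, sgCtrl1 only 6.63% (215), sgCtrl2 only 9.10% (295) and neither 19.6%. The 215 and 295 RH4 peaks held by 1 control would count as present or absent in RH30 depending on which control is taken. For genes, an RH4 NFYB peak lay at 89.2% of genes of both controls, 65.3% of sgCtrl1-only genes (173 of 265), 25.5% of sgCtrl2-only genes (282 of 1105) and 3.29% of genes of neither. Both sgCCAAT libraries listed 66.3%, 30.9% and 2.53% of the 3 classes. All 4 other lists held 77 genes of sgCtrl1 only (29.1%) and 25 of sgCtrl2 only (2.26%), genes which 5 of the 6 lists held and 1 control library did not.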

How the data were processed

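The deposited peak lists of 6 NF-Y CUT&RUN libraries were used. The members and gene lists were chosen with earlier results of these data known. Per the file headers, the authors called the peaks of each RH30 library with findPeaks of HOMER (factor style), asking for 2-fold more tags than an input (the same one for all 4), 4-fold more than the surrounding 10000 bp and a Poisson p-value over input of 0.0001. For the RH4 lists no caller is given in the sources used here. FastQC, Trimmomatic, Bowtie2, MACS2, bedtools, HOMER, deepTools and hg38 are named without versions per the submitters' processing notes. In the deposited lists the score column is a constant of 1, so peaks could not be weighted, and file order served as place. The authors' differential tables and the RH4 consensus list were not used here.

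Overlaps, RefSeq gene windows (GRCh38.p14, 20037 protein-coding genes) and CCAAT or ATTGG counts were computed in Python 3.11.15 with pandas 2.3.3, and intervals with scipy 1.17.1. The shared class uses the sgCtrl1 entry of each pair. Overlap counts were tested on simulated data against bedtools 2.31.1. Promoters were available for 15843 of the genes, and motif overlaps between copies were not merged. Depth is known from the headers for RH30 only. Named genes were PAX3 and FOXO1, the first 10 gene-end peaks of each class, for the particular classes also the first 6 with an RH4 NFYB peak at the gene, and up to 4 list members per class in alphabetical order. For the 3 leading chromosomes the ratio of peak share to gene share was used. Printed sequences and names beyond this rule were chosen after their values were seen. Alternatives were other overlap rules, windows and list lengths, and 1 added after seeing the data. Results for some genes that the rule names are not reported here.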

Additional observations from a re-analysis of the deposited data

How the results depend on the processing

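Of 61 alternative values of 14 results, 28 stayed within their interval (for gene counts, within 1.5 times) and 33 moved. Among them, no class of shared peaks fell below a particular class. With an overlap of 50% of both peaks, shared shares were 56.9% (sgCtrl1) and 34.2% (sgCtrl2), gene-end shares 28.2% (sgCtrl1 only) and 28.2% (sgCtrl2 only), and RH4 NFYB shares 19.8%, 8.06% and 4.46% (both, sgCtrl1 only, sgCtrl2 only). With peaks up to 1000 bp apart, shared shares were 67.7% and 41.0%, and 15.2% of sgCtrl1-only peaks were in RH4. With sgCtrl2 limited to the length of sgCtrl1, 62.3% of each list was shared, gene-end shares were 73.5% (both) and 55.1% (sgCtrl2 only), and RH4 shares 81.7% and 22.1%. In the first 50% of each file, 89.8% and 54.1% were shared, and sgCtrl1 only had 118 genes. With a window of 500 bp, gene-end shares were 67.0%, 17.4% and 22.4%, and 74.2% (both) and 62.8% (sgCtrl1 only) of the promoters of genes in the class held CCAAT. With 3000 bp, gene-end shares were 76.4%, 27.5% and 31.3%. In the 150 bases before the start, CCAAT shares were 61.3%, 45.4% and 26.8%. Over promoters that a peak itself overlapped, chosen after seeing the data and not limited to protein-coding genes, they were 91.0%, 77.9% and 46.1%. No paired analysis was possible because each guide has 1 library. The lists hold no heights, so no list could be filtered to a common signal.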
